A study of Mus musculus with 18 samples.

Results

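The 7 genes described here make or control the making of cholesterol: Srebf2, Hmgcs1, Fdft1, Sqle, Lss, Cyp51 and Dhcr7. They were taken by gene symbol from the 30905 genes of the deposited tables. Their transcripts were counted in 4 classes of nuclei, namely astrocytes, oligodendrocytes, oligodendrocyte precursor cells (OPCs) and neurons. No receptor that takes up lipoprotein cholesterol is among the 7, and such receptors were followed in a separate list of the pathway's other genes.

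The nuclei came from the hippocampus (Hip) and the prefrontal cortex (PFC) of 9 Kun Ming mice, an outbred stock, all 8 weeks old. There were 3 germ-free (GF) mice, numbered 5, 6 and 7, raised without microbes, 3 specific pathogen-free (SPF) mice, numbered 30, 31 and 32, which carry a microbiota, and 3 colonized germ-free (CGF) mice, numbered 17, 18 and 19. CGF mice were born germ-free and shared a cage with SPF mice for the last 4 weeks. Each mouse and region gave 1 droplet-based single-nucleus library, so that the mouse is the replicate (n = 3 per group), and the labels name no transgene or drug for any group.

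Neurons of the adult brain are supplied with cholesterol to a large extent by astrocytes, since the blood-brain barrier keeps lipoproteins of the blood out, and oligodendrocytes need large amounts of it for myelin. Srebf2 encodes SREBP2, a membrane-bound transcription factor that is cut loose when sterols run low and then switches on the genes of the pathway. Hmgcs1 makes HMG-CoA at the start of the mevalonate branch, and Fdft1 joins farnesyl units into squalene, the first step committed to sterols. Sqle, a control point of the pathway, oxidises squalene with molecular oxygen, Lss closes the rings to lanosterol, Cyp51 removes a methyl group from lanosterol, and Dhcr7 reduces the last double bond in one branch of the route to cholesterol.

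SREBP2 acts through promoters, so the sequences around the gene starts are shown first. Each line holds 250 bases before and 50 bases after the RefSeq start on GRCm38.p6, written in the direction of transcription for the factor gene, for the earliest enzyme and for 2 later enzymes. Capitals mark TCACNCCAC, a form of the sterol response element, and CCAAT, both searched on both strands, so that CCAAT on the other strand reads ATTGG.
Srebf2, chr15:82147019-82147318, plus strand: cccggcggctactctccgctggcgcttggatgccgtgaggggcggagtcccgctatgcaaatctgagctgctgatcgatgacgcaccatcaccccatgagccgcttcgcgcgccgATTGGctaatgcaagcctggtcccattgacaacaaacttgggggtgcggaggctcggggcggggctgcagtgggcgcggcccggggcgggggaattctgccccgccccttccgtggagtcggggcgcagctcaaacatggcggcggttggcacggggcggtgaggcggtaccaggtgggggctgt
Hmgcs1, chr13:119690101-119690400, plus strand: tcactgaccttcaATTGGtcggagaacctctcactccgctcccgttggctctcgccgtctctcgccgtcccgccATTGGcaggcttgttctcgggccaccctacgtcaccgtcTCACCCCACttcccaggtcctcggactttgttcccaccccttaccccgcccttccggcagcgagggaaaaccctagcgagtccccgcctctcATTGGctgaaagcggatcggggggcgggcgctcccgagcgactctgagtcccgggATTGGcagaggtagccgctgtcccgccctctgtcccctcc
Lss, chr10:76531355-76531654, plus strand: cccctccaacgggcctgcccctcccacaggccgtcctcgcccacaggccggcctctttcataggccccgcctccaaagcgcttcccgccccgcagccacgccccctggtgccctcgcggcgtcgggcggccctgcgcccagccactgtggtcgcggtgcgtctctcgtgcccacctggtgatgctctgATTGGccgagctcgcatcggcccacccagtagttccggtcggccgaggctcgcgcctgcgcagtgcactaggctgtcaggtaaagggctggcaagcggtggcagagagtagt
Cyp51, chr5:4104648-4104947, minus strand: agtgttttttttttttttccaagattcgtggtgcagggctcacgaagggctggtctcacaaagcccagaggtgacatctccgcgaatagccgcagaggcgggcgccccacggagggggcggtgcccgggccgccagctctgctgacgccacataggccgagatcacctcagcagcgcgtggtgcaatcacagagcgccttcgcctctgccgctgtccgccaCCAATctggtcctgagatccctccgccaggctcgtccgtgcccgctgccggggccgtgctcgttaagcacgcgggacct

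The Hmgcs1 window held TCACNCCAC once, as TCACCCCAC starting 137 bases before the gene start, and CCAAT 4 times. TCACNCCAC stood in 408 of 32851 RefSeq promoter windows of this length (1.24%), and CCAAT in 12289 (37.4%). In the Srebf2, Lss and Cyp51 windows CCAAT occurred once each, and TCACNCCAC did not occur. Other forms of the sterol response element were not searched and may be present. Promoter windows were found for 5 of the 7 genes, Dhcr7 with 3 start sites among them and no TCACNCCAC in any, and those of Sqle and Fdft1 were not analysed here. A match of letters describes the window only, and these data hold no measurement of binding.

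On mm10 (GRCm38), the genes lie at chr15:82147181-82205379 (Srebf2, plus strand), chr13:119690379-119708260 (Hmgcs1, plus), chr14:63145150-63179578 (Fdft1, minus), chr15:59315077-59331192 (Sqle, plus), chr10:76531588-76557138 (Lss, plus), chr5:4081145-4104746 (Cyp51, minus) and chr7:143823145-143848410 (Dhcr7, plus). Genes on the opposite strand overlap Hmgcs1, Fdft1, Lss and Cyp51, and the strand setting of the counting is not given in the sources used here, so reads of these pairs may not be separated.

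The libraries differed in depth and quality along with the groups. In PFC, GF libraries held 59126586 to 71463928 unique molecular identifiers (UMIs, 1 per captured transcript), above the 20336250 to 26949210 of SPF and CGF libraries, while all Hip libraries held 49067853 to 63217083. The median UMIs per nucleus were lower in GF than in SPF mice in Hip (4678 to 5905 against 6173 to 7087) and higher in PFC (6796 to 7427 against 3037 to 3208). The mitochondrial share of UMIs was higher in GF than in SPF mice in Hip (0.645 to 1.10% against 0.128 to 0.471%) and lower in PFC (0.359 to 0.594% against 1.66 to 3.22%). Of 138000 nuclei, 123656 passed a gate on marker genes: 12732 astrocytes, 8558 oligodendrocytes, 3300 OPCs and 99066 neurons. Check markers left out of the gate (5 for astrocytes, such as Slc1a2) summed to 6657 to 10783 UMIs per 1000000 UMIs in astrocytes and 269 to 694 in neurons. Neuronal check markers summed to 5535 to 12953 in neurons, but also to 1401 to 2455 in astrocytes and 1658 to 2697 in oligodendrocytes, and OPC check markers to 4231 to 5185 in Hip OPCs and 1164 to 1697 in Hip astrocytes. The classes may thus hold each other's RNA, which was not told apart from a class's own expression of these markers. Of all OPCs 28.3% lay close to the gate's limit, and the Hip library of GF mouse 6 stood apart, with 68 of 106 OPCs, 123 of 401 astrocytes and 1140 of 5386 neurons there. The same library held the most RNA of 4 choroid plexus markers, with 4972 CPM in astrocytes and 5949 CPM in oligodendrocytes, against 24.6 to 1691 and 22.4 to 1982 CPM in the other 8 Hip mice. Without that mouse, 4 of the 5 Hip calls between GF and SPF mice and 7 of the 8 between GF and CGF mice given below were kept. SPF mice were also reared apart from GF and CGF mice, so microbes, rearing and library quality cannot be told apart between GF and SPF, and the part of depth and of mitochondrial RNA in the results was not tested.

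Levels below are UMIs of a gene per 1000000 UMIs of all genes (CPM) in the summed nuclei of 1 class in 1 mouse and region. They show which class or mouse is higher for 1 gene and were not used to rank genes against each other, since transcript length and capture differ. Fold changes are log2 values from edgeR's quasi-likelihood test on the summed UMIs after TMM scaling, with the standard error (SE), and a gene was called when its p-value, adjusted by Benjamini-Hochberg over all genes tested in that class, was under 0.05. TMM scaling moved the members' log2 values in neurons away from plain library sizes by a median of 0.15 in Hip and -0.11 in PFC between GF and SPF (plain minus TMM), so the CPM values and the fold changes of neurons differ by about that much. From single-nucleus data of whole classes, fewer nuclei in a state and less RNA per nucleus cannot be told apart.

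Of the 4 classes, astrocytes had the highest median of each of the 7 genes in both regions, and the lowest median was in neurons or in OPCs. In Hip each of the 7 was higher in astrocytes than in neurons, by log2 differences of 0.88 ± 0.13 (SE) for Lss to 1.73 ± 0.08 for Hmgcs1, and in PFC by 0.96 for Srebf2 to 1.66 for Fdft1. Of all genes tested, 42.5% in Hip and 36.8% in PFC were called higher in astrocytes than in neurons. Plain library sizes in place of TMM raised the members' differences by a median of 0.29 in Hip and 0.12 in PFC. Every astrocyte value lay above every neuronal value for 6 of the 7 genes in Hip and for all 7 in PFC, against 37.2% and 28% of all genes without overlap in either direction.

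For Hmgcs1, the Hip values over the 9 mice ran from 67.8 to 139 CPM in astrocytes (median 99.0) and from 18.1 to 33.0 CPM in neurons (median 25.8). Oligodendrocytes lay between them with a median of 72.9 CPM, and OPCs had a median of 33.4 CPM. Fdft1 had the same order of glia in Hip, but with neurons above OPCs, with medians of 78.4 CPM in astrocytes, 66.3 in oligodendrocytes, 22.5 in neurons and 16.9 in OPCs. Astrocytes thus held the highest median of both genes, and neurons and OPCs the lowest pair.

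Cyp51 had Hip medians of 67.7 CPM in astrocytes, 40.8 in oligodendrocytes, 24.3 in OPCs and 21.1 in neurons. Sqle followed with 39.7, 29.1, 17.6 and 10.8 CPM in the same order of classes, and Dhcr7 with 31.7, 16.4, 9.37 and 9.44 CPM. Lss was the gene with the smallest spread between classes, with medians of 15.2 CPM in astrocytes, 13.7 in oligodendrocytes, 9.07 in OPCs and 7.39 in neurons. In PFC the medians in astrocytes were 120 CPM for Hmgcs1, 93.7 for Fdft1, 83.6 for Cyp51, 40.5 for Sqle, 32.6 for Dhcr7 and 19.3 for Lss, each above the median of the same gene in the other 3 classes.

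Srebf2 was not called apart between the 2 main glial classes by edgeR with the gate. Its Hip medians were 157 CPM in astrocytes and 144 in oligodendrocytes, and the log2 difference of 0.03 had an interval (2 SE to each side) of -0.12 to 0.17. In PFC the difference was 0.22, again not called, and 0.36 and called with Leiden clusters. Srebf2 was called lower in OPCs than in neurons in both regions, by -0.35 ± 0.09 in Hip and -0.56 in PFC, with medians of 51.6 against 60.1 CPM in Hip, and the Hip difference was not called with plain library sizes (-0.11) or without GF mouse 5 (-0.25). After correction of every library for gene length and base composition (GC), neither was called, at -0.09 in Hip and -0.34 in PFC.

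Among the neighbours in the order, astrocytes exceeded oligodendrocytes for 5 of 7 genes in Hip (not called: Srebf2 and Lss, the latter with 0.35 and an adjusted p of 0.0748 by edgeR) and for 6 of 7 in PFC, while 29.2% and 24.4% of all genes were called higher in astrocytes. Oligodendrocytes exceeded neurons for 7 of 7 genes in Hip, by 0.52 to 1.32, and for 5 of 7 in PFC, where Lss and Dhcr7 were not called, against 39.9% and 33% of all genes. OPCs and neurons were the least separated: Sqle was called higher in OPCs in Hip, by 0.44, a call lost without a filter (0.30), with no library block (0.39) and without CGF mouse 19 (0.35), and Fdft1 was called lower in OPCs in both regions, by -0.62 and -0.65. With plain library sizes the Hip difference of Fdft1 was -0.37 and no longer called. Hmgcs1 was called higher in Hip OPCs than in neurons in 4 alternatives, by 0.32 to 0.46. In all, 36 of 42 comparisons between classes were called in Hip and 33 of 42 in PFC, against 63.3% and 51.5% of all genes.

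**Figure D1:**
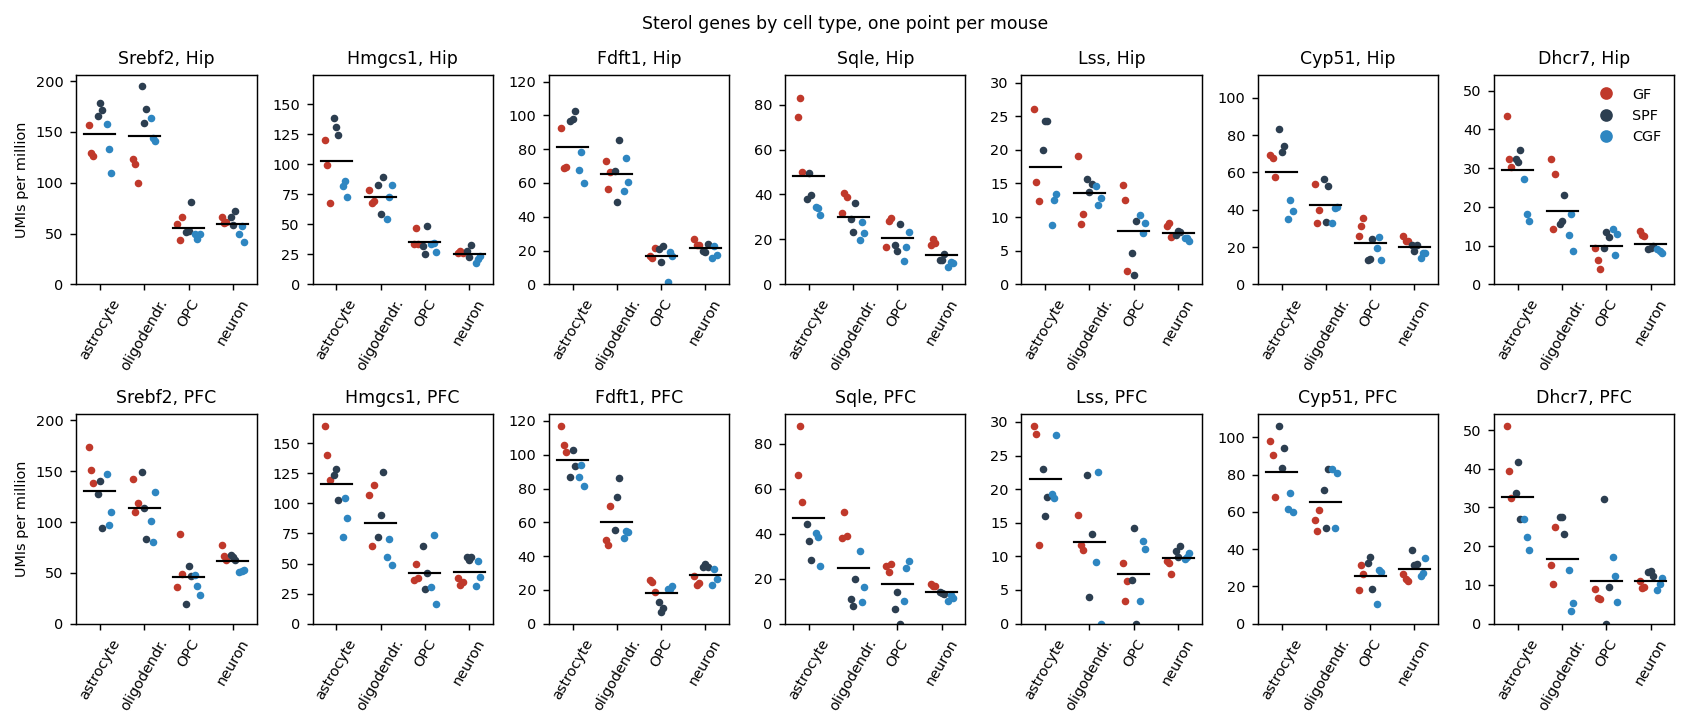
CPM (vertical axis) of each of the 7 genes (columns) in the 4 classes of nuclei, Hip above and PFC below, with 1 point per mouse coloured by group and a black line at the mean of the 9 mice. The astrocyte points of Hmgcs1, Fdft1 and Cyp51 stand above the neuronal points in both regions, while those of Srebf2 mix with the oligodendrocyte points.

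Across the 24 means of class, region and group, which come from the same 18 libraries and share their depth, the 7 genes went together with Pearson's r from 0.61 (Sqle and Cyp51) to 0.93 (Hmgcs1 and Cyp51). The differences between classes given above enter each r, so r does not show that the genes move together within a class. Among 5018 genes, the pattern of their mean was most like that of Gabbr1, a GABA-B receptor subunit (r = 0.97), Ppp2r5a, a phosphatase subunit (r = 0.92), and Tspan9 (r = 0.91). The single closest gene was Glul, the astrocytic glutamine synthetase, for Hmgcs1 (r = 0.94) and Cyp51 (r = 0.92), Clu, which encodes a secreted apolipoprotein, for Sqle (r = 0.90), and Eps15 for Srebf2 (r = 0.96). Gabbr1 was closest to Fdft1 (r = 0.94), Dhcr7 (r = 0.87) and Lss (r = 0.83).

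The comparison of GF with SPF mice asks how the absence of a microbiota goes along with expression. Sqle was called higher in GF mice in 4 of 6 pairs of class and region (against 20% of all genes called higher in Hip and 25.8% in PFC), and no other member was called higher in more than 1. The pairs come from the same mice, and Sqle is singled out here by its number of calls, so this count is a description. Sqle was also called in PFC oligodendrocytes, but it passed the filter on low counts there through GF mice alone, so that this call is counted here and supports nothing. In Hip, 5 of 26 member and class pairs were called (19.2%, against 36.7% of all genes), and in PFC 5 of 21 (23.8%, against 51% of all genes), or 4 of 20 (20%) without Sqle in oligodendrocytes. Sqle made up 2 of the 5 calls in Hip and 3 of the 5 in PFC, so that the other 6 genes gave 3 calls of 22 pairs and 2 of 18. With plain library sizes the calls in PFC were 3 higher and 5 lower, against 3 and 2 after TMM scaling. GF values stood above all SPF values in 5 and below them in 5 pairs in Hip and in 3 and 5 pairs in PFC, where 49% and 59.7% of all genes had no overlap. The members' median log2 change was -0.04 in Hip and 0.19 in PFC, or -0.13 and -0.05 without Sqle, and the share of pairs called was below that of all genes in both regions. Not tested for low counts were Lss and Dhcr7 in Hip OPCs and in PFC oligodendrocytes, and all but Srebf2 and Hmgcs1 in PFC OPCs, 9 of 56 pairs in all. In astrocytes the 9 neuronal gate markers were lower in GF than in SPF mice, with 1131 to 1535 against 1922 to 2757 CPM in Hip and 1583 to 1735 against 1827 to 2525 CPM in PFC, and they were also lower in Hip neurons themselves (7917 to 8429 against 9707 to 9889 CPM). The 5 neuronal check markers overlapped in astrocytes (1649 to 2034 against 1640 to 2455 CPM in Hip, 1854 to 2252 against 1468 to 2403 CPM in PFC), and the part of either list in the changes of glial genes was not tested. The 4 fibroblast markers in astrocytes were higher in GF mice without overlap (65.6 to 107 against 38.0 to 64.8 CPM in Hip, 180 to 222 against 101 to 153 CPM in PFC). The 8 microglia markers there were lower in GF mice in Hip (117 to 136 against 143 to 154 CPM) and higher in PFC (165 to 189 against 119 to 161 CPM), again without overlap. Their part in the changes of astrocyte genes, here and in the lists below, was not tested.

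In Hip astrocytes, Sqle stood at 74.5, 82.8 and 49.9 CPM in GF mice 5, 6 and 7, at 38.0, 49.4 and 39.7 CPM in SPF mice 30, 31 and 32, and at 34.4, 33.8 and 31 CPM in CGF mice 17, 18 and 19. All 3 GF values were above all SPF values, the lowest GF and the highest SPF value by little. The log2 change was 0.70 ± 0.18 (adjusted p = 0.00749, edgeR), and it was 0.47 and not called after the correction for length and GC, with adjusted p-values from 0.000727 to 0.0696 over 18 alternatives.

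In Hip neurons, Sqle stood at 17.6, 20.04 and 18.3 CPM in GF mice, at 10.7, 10.8 and 13.3 CPM in SPF mice and at 7.80, 10.1 and 9.31 CPM in CGF mice. The GF values formed a tight set apart from the other 6. The change from SPF to GF was 0.53 ± 0.11 (adjusted p = 0.00379, edgeR) and was called in all 18 alternatives, with values from 0.35 to 0.68. In the same neuronal sums the 8 microglia markers were higher in GF than in SPF mice without overlap (76.2 to 90.7 against 57.5 to 62.2 CPM). In PFC neurons they were also higher (70.8 to 77.1 against 58.9 to 65.9 CPM), and their part was not tested.

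In PFC astrocytes, the Sqle values were 66.1, 88.1 and 54.3 CPM in GF mice, 44.3, 37.0 and 28.3 CPM in SPF mice and 40.5, 38.7 and 25.5 CPM in CGF mice. SPF and CGF values covered the same range, below all GF values. The change was 0.95 ± 0.24 (adjusted p = 0.0023, edgeR), called in all 18 alternatives. Fibroblast and microglia markers were also higher in these GF sums, as given above. In PFC neurons, GF mice had 17.9, 16.6 and 16.8 CPM, SPF mice 13.9, 13.8 and 13.2 CPM and CGF mice 10.1, 12.6 and 11.4 CPM, and the change of 0.44 ± 0.11 (adjusted p = 0.00508, edgeR) was likewise called in all 18.

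In PFC oligodendrocytes, Sqle stood at 38.1, 49.7 and 38.8 CPM in GF mice, at 11.1, 7.87 and 19.9 CPM in SPF mice and at 32.2, 9.65 and 16.2 CPM in CGF mice. The SPF values rest on 2, 2 and 6 UMIs, the CGF values on 7, 3 and 3 and the GF values on 33, 34 and 39. Only the GF values reached the 33.2 CPM that the filter asked of 3 sums, so the pair was tested because GF was high, and the change of 1.65 ± 0.45 is a description. It was 1.34 to 2.22 over 16 alternatives, and the gene was under the filter in the other two, with thinning and without the nuclei of highest UMIs. In Hip oligodendrocytes the same gene gave 31.5, 40.6 and 38.9 CPM in GF mice and 29.1, 23.3 and 36.1 CPM in SPF mice, which overlap, and the log2 difference of 0.38 was not called.

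OPCs held few Sqle UMIs. In Hip OPCs the GF values of 16.7, 28.2 and 29.4 CPM overlapped the SPF values of 17.6, 14.8 and 27.0 CPM, with a log2 difference of 0.22 that was not called. In PFC OPCs, GF mice had 17, 14 and 21 UMIs (25.6, 23.2 and 26.5 CPM), SPF mice 1, 2 and 0 UMIs (a count of 0 allows up to 3 UMIs or 14.1 CPM there, for counting error only) and CGF mice 3, 6 and 5 UMIs (10.3, 24.6 and 27.7 CPM), and the gene was under the filter on low counts there.

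**Figure D2:**
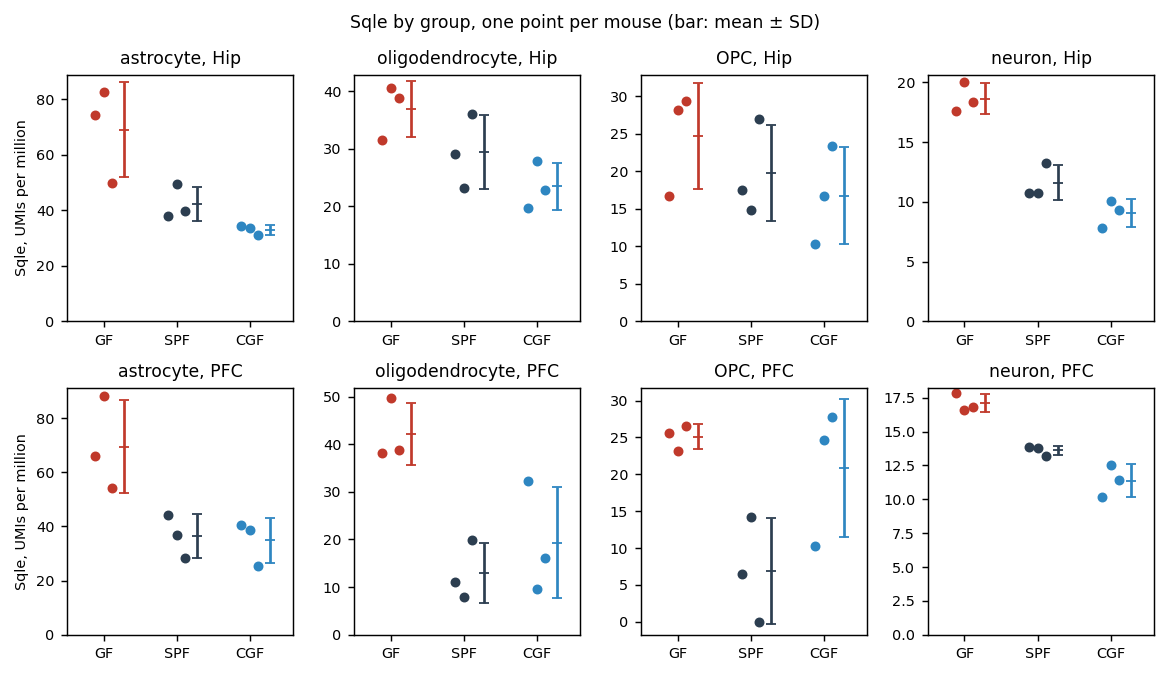
Sqle in CPM for GF, SPF and CGF mice in each class (columns), Hip above and PFC below, with 1 point per mouse and the mean ± SD beside it. GF points stand above all SPF points in astrocytes and neurons of both regions and in PFC oligodendrocytes, where SPF points rest on 2, 2 and 6 UMIs.

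By edgeR with the gate and TMM scaling, Srebf2 was called between GF and SPF mice in 1 class, Hip oligodendrocytes, where it was lower in GF mice. The values were 124, 119 and 99.5 CPM in GF mice, 195, 159 and 172 CPM in SPF mice and 164, 144 and 141 CPM in CGF mice. GF values did not reach the other 6. The change was -0.55 ± 0.14 (adjusted p = 0.00544, edgeR), and it was -0.32 and not called after the correction for length and GC. In the same nuclei the gate markers of astrocytes summed to 297 to 415 CPM in GF and 657 to 753 CPM in SPF mice, those of neurons to 1299 to 1692 and 2235 to 3120 CPM (their check markers overlapped, with 1690 to 2362 and 1822 to 2673 CPM), and those of oligodendrocytes to 17700 to 18645 and 13791 to 15912 CPM. Their part in the change of Srebf2, and in those of other genes of these nuclei below, was not tested.

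In Hip astrocytes Srebf2 stood at 157, 129 and 127 CPM in GF mice and at 165, 179 and 172 CPM in SPF mice, a log2 difference of -0.29 that was not called. In PFC astrocytes the order was turned, with 174, 151 and 139 CPM in GF mice and 128, 140 and 94.4 CPM in SPF mice, and the difference of 0.38 ± 0.16 had an adjusted p of 0.0601 by edgeR. It was called in 11 of the 18 alternatives. Neuronal values of Srebf2 ran from 60.1 to 66.0 CPM in GF and from 58.3 to 72.0 CPM in SPF mice in Hip, and from 62.4 to 77.5 and from 62.8 to 67.4 CPM in PFC, and these overlapped in both regions. In PFC neurons it was called higher in GF mice with thinning (0.23), without GF mouse 7 (0.26) and after the correction for length and GC (0.50).

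Hmgcs1, the enzyme at the head of the pathway, was called lower in GF mice in Hip astrocytes and in PFC neurons. In Hip astrocytes it stood at 120.2, 99.0 and 67.8 CPM in GF mice, 139, 131 and 124 CPM in SPF mice and 81.5, 86.0 and 72.5 CPM in CGF mice, so that GF mouse 7 lay farthest from SPF. The change was -0.44 ± 0.16 (adjusted p = 0.0444, edgeR), kept in 8 of 18 alternatives with adjusted p-values from 0.00945 to 0.251. It was not called without GF mouse 6 or 7, CGF mouse 17 or 18, or SPF mouse 30, 31 or 32, with values from -0.48 to -0.23, the last without GF mouse 7.

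In PFC neurons, Hmgcs1 stood at 37.8, 31.8 and 34.5 CPM in GF mice, at 55.6, 52.6 and 55.4 CPM in SPF mice and at 31.3, 52.4 and 38.9 CPM in CGF mice. GF and SPF values were far apart, and CGF mouse 18 lay with the SPF mice while the other two lay near the GF mice. The change from SPF to GF was -0.54 ± 0.17 (adjusted p = 0.0144, edgeR) and was lost only without GF mouse 6, at -0.49. In Hip neurons, GF values of 25.8 to 27.7 CPM lay inside the SPF range of 22.6 to 33.0 CPM.

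Cyp51, which acts on lanosterol, was called lower in GF mice in PFC neurons alone. There it stood at 26.4, 24.2 and 22.9 CPM in GF mice, at 39.4, 31.6 and 32.03 CPM in SPF mice and at 25.7, 27.0 and 35.3 CPM in CGF mice. The change was -0.37 ± 0.12 (adjusted p = 0.0188, edgeR), and it was not called without GF mouse 7 (-0.32) or SPF mouse 30 (-0.30). In Hip neurons the order was the other way, with 25.9, 23.0 and 23.2 CPM in GF and 21.1, 17.6 and 21.2 CPM in SPF mice, and the log2 difference of 0.12 was not called.

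Dhcr7, which acts at the end of the route, was called higher in GF mice in Hip neurons alone. It stood there at 13.9, 12.7 and 12.6 CPM in GF mice, at 9.14, 9.44 and 9.89 CPM in SPF mice and at 9.11, 8.70 and 8.05 CPM in CGF mice, with all GF values above the other 6. The change was 0.31 ± 0.09 (adjusted p = 0.0175, edgeR). It was not called without GF mouse 5 (0.25), without SPF mouse 30 (0.29) or after the correction for length and GC (0.25). In PFC neurons the GF values of 10.9, 9.32 and 9.58 CPM lay below the SPF values of 13.3, 13.5 and 12.3 CPM, and the difference of -0.28 had an adjusted p of 0.0721 by edgeR. It was called with plain library sizes (-0.39), with only the 2 groups compared (-0.29) and without CGF mouse 17 (-0.28), and Dhcr7 in PFC astrocytes was called higher with Leiden clusters (0.69).

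Fdft1 and Lss were called in no class between GF and SPF mice by edgeR after TMM scaling. Fdft1 in Hip astrocytes stood at 92.8, 68.7 and 69.5 CPM in GF mice and at 96.6, 98.0 and 102 CPM in SPF mice, with a log2 difference of -0.33 and no overlap, and in PFC neurons at 28.2, 22.6 and 24.3 against 33.8, 35.3 and 33.2 CPM, with -0.34 ± 0.14 (adjusted p = 0.0565, edgeR). The PFC value was called lower in 8 of 18 alternatives, the Hip value without GF mouse 5 (-0.46), and Fdft1 in PFC astrocytes was called higher with Leiden clusters (0.44). Lss in Hip astrocytes stood at 26.0, 15.2 and 12.3 CPM in GF mice and at 20.03, 24.3 and 24.3 CPM in SPF mice, which overlap. In PFC neurons its GF values of 9.36, 8.94 and 7.32 CPM lay below the SPF values of 10.9, 9.89 and 11.5 CPM, with a log2 difference of -0.22 that was not called, and -0.33 and called with plain library sizes.

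**Figure D3:**
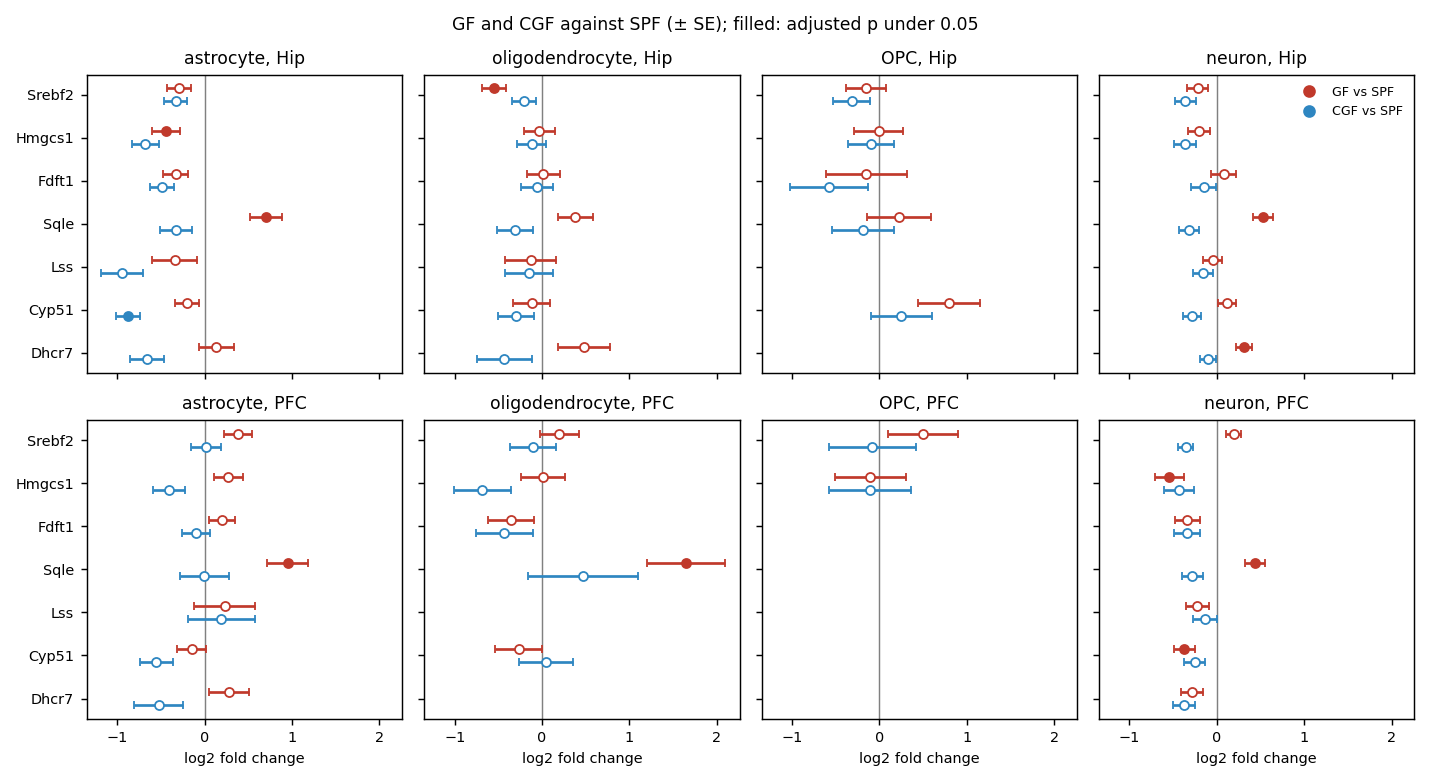
Log2 fold change (± SE) of GF against SPF mice and of CGF against SPF mice for each gene, by class (columns) and region (rows), with filled points for adjusted p under 0.05 and no point for pairs under the filter on low counts. The filled GF points above 0 belong to Sqle, and to Dhcr7 in Hip neurons, while nearly all CGF points in Hip lie below 0 with 1 filled, Cyp51 in astrocytes.

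Colonized mice were compared with SPF mice to ask what differed after 4 weeks with microbes. The 2 groups also differ in rearing, in the germ-free birth of CGF mice and in their later sharing of a cage. These cannot be told apart here. In Hip, 25 of 26 tested log2 values were below 0, and 1 was called by edgeR, Cyp51 in astrocytes (3.85%, against 0.411% of all genes). At an unadjusted p under 0.05, 10 of the 26 were lower and none higher (38.5%, against 5.27% of all genes lower at that p). The pairs are 7 genes in classes of the same mice and so not separate observations, here and in PFC below. The difference between such shares was not tested. CGF values lay below all SPF values in 13 of the 26 pairs in Hip and in 9 of 21 in PFC, where 17.3% and 13.9% of all genes had no overlap in either direction, and above them in 0. In Hip astrocytes, the CGF values of all 7 genes lay below all SPF values, against 16% of genes without overlap in either direction, and the members' median log2 change there was -0.66 against -0.01 for all genes tested. In the same sums the astrocyte check markers (9676 to 10783 CPM in CGF against 8387 to 9252 CPM in SPF mice) and the 4 fibroblast markers (96.1 to 132 against 38.0 to 64.8 CPM) were higher in CGF mice without overlap, and their part was not tested.

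Cyp51 in Hip astrocytes stood at 35.2, 45.3 and 39.6 CPM in CGF mice and at 83.2, 70.8 and 74.1 CPM in SPF mice, on 88 to 138 and 162 to 183 UMIs. GF mice stood at 69.6, 67.7 and 57.7 CPM, between them and closer to SPF. The change from SPF to CGF was -0.88 ± 0.14 (adjusted p = 0.0183, edgeR, and 1.08e-05 to 0.078 over the alternatives). Without CGF mouse 17 it was -0.80, without CGF mouse 19 -0.85 and without SPF mouse 30 -0.81, and it was not called in these 3 fits.

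The other 6 genes were not called in Hip astrocytes of CGF mice by edgeR with the filter and all 9 mice. Hmgcs1 was called lower without a filter (-0.66), with only the 2 groups compared (-0.67) and without GF mouse 7 (-0.68), and Lss without a filter (-0.93). Lss stood at 8.79, 12.5 and 13.5 CPM in CGF and at 20.03, 24.3 and 24.3 CPM in SPF mice, with a log2 difference of -0.94 (adjusted p = 0.15, edgeR). The differences were -0.68 for Hmgcs1, -0.66 for Dhcr7, -0.49 for Fdft1, and -0.33 for Srebf2 and for Sqle, with adjusted p-values from 0.107 to 0.58 by edgeR.

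In PFC, 17 of 21 log2 values were below 0, with a median of -0.26, and edgeR called 0 of 21, while 8 were lower at an unadjusted p under 0.05 (38.1%, against 5.72% of all genes) and DESeq2 called 1, Srebf2 in neurons. Srebf2 in PFC neurons stood at 51.1, 51.6 and 52.6 CPM in CGF mice and at 67.4, 65.2 and 62.8 CPM in SPF mice, with -0.36 by edgeR and -0.35 by DESeq2. Of all genes, 0.273% were called in PFC, so that few genes of any kind passed this comparison.

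GF and CGF mice share their germ-free origin and differ by label in the 4 weeks of microbes. Their libraries also differed without overlap in the mitochondrial share (0.645 to 1.10% in GF against 0.077 to 0.218% in CGF mice in Hip, 0.359 to 0.594% against 1.28 to 2.24% in PFC) and in PFC depth, which cannot be told apart from the microbes. Higher in GF mice were 8 of 26 pairs in Hip (30.8%, against 20.4% of all genes called higher) and 6 of 21 in PFC (28.6%, against 26%), or 5 of 20 without Sqle in oligodendrocytes, and none was called lower by edgeR after TMM scaling. Srebf2 in Hip oligodendrocytes was called lower with plain library sizes (-0.39), for a split of 9 higher and 1 lower in Hip, and without the nuclei of highest UMIs (-0.39). This comparison uses the same GF values as the one with SPF mice, so calls in both are not separate evidence. It also shares its CGF values with the comparison of CGF and SPF mice. In Hip the members' median log2 change from SPF was -0.31 in CGF and -0.04 in GF mice, with 1 and 5 of 26 pairs called. The GF changes went both ways, 15 below and 11 above 0. These medians thus give a direction and not a distance from SPF. Sqle was called in 5 pairs, with changes of 1.03 in Hip astrocytes, 0.69 in Hip oligodendrocytes, 0.85 in Hip neurons, 0.96 in PFC astrocytes and 0.72 in PFC neurons. Its change of 1.18 in PFC oligodendrocytes, where it passed the filter through GF mice alone, is a description.

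Dhcr7 was higher in GF than in CGF mice in 4 pairs. In Hip astrocytes it stood at 43.6, 32.3 and 30.3 CPM in GF mice and at 27.2, 18.04 and 16.4 CPM in CGF mice, a change of 0.79 that was 0.63 and not called without GF mouse 5. In PFC astrocytes the values were 51.1, 39.4 and 32.6 against 27.0, 22.5 and 19.1 CPM, a change of 0.81. It was 0.41 and not called after thinning, a random draw from the class sums that also adds counting noise. The part of depth in this was not tested. The changes were 0.41 in Hip neurons and 0.91 in Hip oligodendrocytes, the latter kept in 9 of 18 alternatives and lost without GF mouse 5 (0.67) or 7 (0.81) or CGF mouse 17 (0.86) or 19 (0.69).

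The other 4 calls of GF over CGF were Cyp51 in Hip astrocytes (0.68) and Hip neurons (0.40), Hmgcs1 in PFC astrocytes (0.68) and Srebf2 in PFC neurons (0.55). Hmgcs1 in PFC astrocytes stood at 165, 140.4 and 119.8 CPM in GF mice, at 124, 129 and 103 CPM in SPF mice and at 72.3, 104.9 and 87.9 CPM in CGF mice. The calls of Sqle in oligodendrocytes were lost in Hip without CGF mouse 17 (0.57) or GF mouse 6 (0.60) or 7 (0.66), and in PFC without CGF mouse 18 (0.78) or 19 (1.10) or GF mouse 6 (1.059). Summed over the 7 genes, Hip astrocytes held 414 to 584 CPM in GF mice, 571 to 584 in SPF mice and 342 to 412 in CGF mice, the 3 CGF values being the lowest.

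Whether the difference between GF and SPF mice was of another size in glia than in neurons was tested directly. In Hip, 3 of 21 tests were called (14.3%, against 8.06% of all genes), all with the glial difference below the neuronal one: Fdft1 in astrocytes by -0.58, Cyp51 in astrocytes by -0.49 and Srebf2 in oligodendrocytes by -0.51. The median over all genes was itself -0.17 in astrocytes and -0.19 in oligodendrocytes, and the 3 calls held in 6, 3 and 7 of 18 alternatives. All 3 were lost without CGF mouse 17, any GF mouse or SPF mouse 30, with values from -0.56 to -0.17. Without SPF mouse 31 the calls of Fdft1 (-0.52) and Cyp51 (-0.45) were lost, and without CGF mouse 18 that of Cyp51 (-0.49).

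In PFC, 2 of 21 were called (9.52%, against 11.3% of all genes), both with the astrocytic difference above the neuronal one. Hmgcs1 differed by 0.78 and was called in all 18 alternatives: its values in PFC astrocytes differed by 0.27 between GF and SPF mice, not called (0.47 and called with Leiden clusters), and those in neurons were lower by -0.54. Fdft1 differed by 0.50, and the call was lost without GF mouse 6 (0.37) or SPF mouse 30, 31 or 32 (0.49 to 0.51). For Sqle, no such test was called in either region by edgeR with the gate, but in PFC the astrocytic difference was called above the neuronal one with Leiden clusters (0.64) and without a filter (0.65), and the oligodendrocytic one with Leiden clusters (1.10).

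The size of the difference between GF and SPF mice also depended on the region for some genes. In 6 of 26 pairs the Hip difference and the PFC difference were called apart (23.1%, against 31.8% of all genes). With plain library sizes, 5 were more positive in Hip and 4 more negative, against 2 and 4 after TMM scaling. For Dhcr7 in neurons, the difference in Hip exceeded that in PFC by 0.53 ± 0.15 (adjusted p = 0.00686, edgeR), called in all 18 alternatives, with GF above SPF in Hip and below it in PFC. Cyp51 in neurons had the same order, by 0.44 ± 0.16, and was not called without any 1 of the 6 GF and SPF mice, with values from 0.41 to 0.48. The mitochondrial share of UMIs also moved in opposite directions in the 2 regions, and so did the UMIs per nucleus, and the part of either was not tested.

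Srebf2 was the gene whose difference between GF and SPF mice moved with the region in 3 classes, always toward lower values in Hip, by -0.61 ± 0.22 in astrocytes, -0.74 ± 0.25 in oligodendrocytes and -0.46 ± 0.15 in neurons. The median over all genes was itself -0.03, -0.11 and -0.13 in these classes. In neurons the value with plain library sizes was -0.15 and not called, and the call was lost without GF mouse 6 (-0.43) or SPF mouse 30 (-0.44) or 32 (-0.42). The call in astrocytes was lost without any 1 of the 6 GF and SPF mice (-0.70 to -0.49), that in oligodendrocytes without GF mouse 5 or 7, SPF mouse 31 or 32 or CGF mouse 17 (-0.83 to -0.63). Hmgcs1 in astrocytes differed by -0.66 ± 0.24, lost without GF mouse 6 or 7 or SPF mouse 30, 31 or 32 (-0.72 to -0.55). Sqle was not called apart between regions, with 0.04 ± 0.15 in neurons, an interval by SE as above of -0.82 to 0.43 in astrocytes, and -1.27 ± 0.49 in oligodendrocytes, where it was called with Leiden clusters (-1.23) and with the stricter gate (-1.46). With the mouse as a replicate block, 7 pairs were called, Fdft1 in neurons being added with 0.36.

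Within SPF mice, Hip and PFC differed in 6 of 26 pairs (23.1%, against 45.9% of all genes). The SPF libraries of Hip were also deeper (55558458 to 63217083 against 20336250 to 26949210 UMIs) and lower in mitochondrial share (0.128 to 0.471% against 1.66 to 3.22%), which cannot be told apart from the region. With plain library sizes, 3 were higher and 5 lower in Hip, against 3 and 3 after TMM scaling. Neurons held less of 3 enzymes in Hip: Hmgcs1 by -0.77, with 27.3, 22.6 and 33.0 CPM in Hip and 55.6, 52.6 and 55.4 CPM in PFC, Cyp51 by -0.56 and Fdft1 by -0.48, the last not called without SPF mouse 31 (-0.42). Srebf2 was higher in Hip in astrocytes (0.50) and oligodendrocytes (0.65), and both calls were lost without SPF mouse 32 (0.38 and 0.52). Sqle was higher in Hip oligodendrocytes by 1.12, on the few PFC UMIs given above, and kept this call in 10 of 18 alternatives, while in neurons it differed by -0.01 ± 0.11. The call of Sqle was lost without SPF mouse 30 (1.07), 31 (0.96) or 32 (1.57) or GF mouse 5 (1.12) or 7 (1.11). With the mouse as a replicate block 9 pairs were called, the added ones being Cyp51 in astrocytes (-0.35), Lss in neurons (-0.26) and Srebf2 in neurons (0.22).

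**Figure D4:**
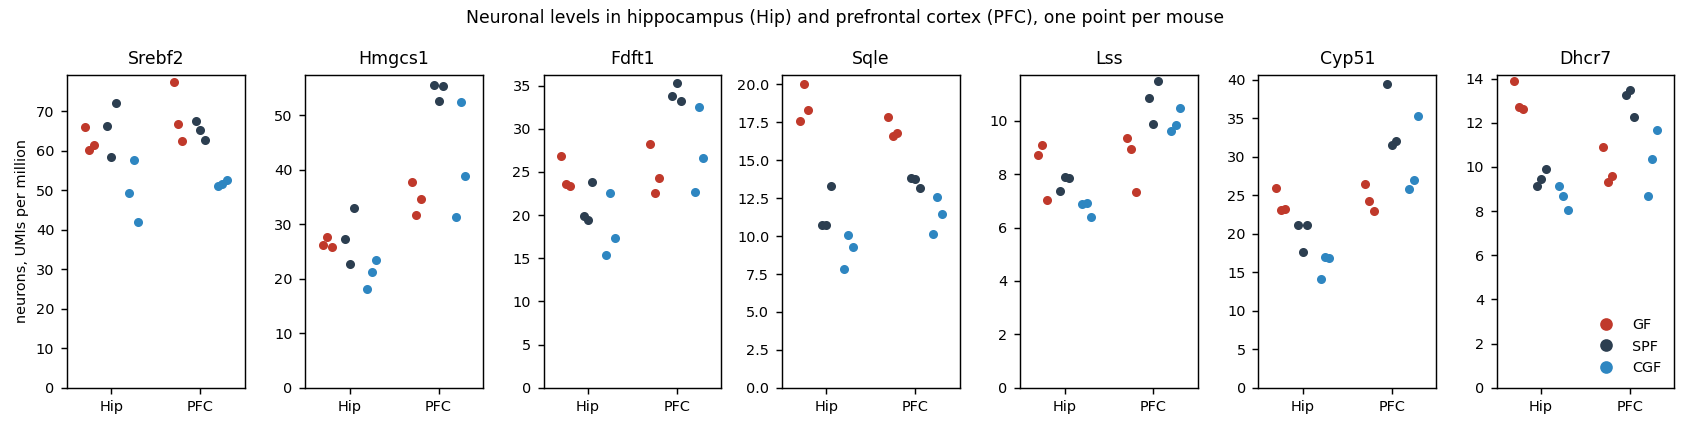
CPM (vertical axis) of the 7 genes in neurons of Hip and PFC, with 1 point per mouse coloured by group. SPF points of Hmgcs1 and Cyp51 are higher in PFC than in Hip and lie above the GF points there, while those of Sqle lie below the GF points in both regions.

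Neurons were also split into glutamatergic nuclei, with more Slc17a7 than Gad1 and Gad2 UMIs, and GABAergic nuclei with the reverse, a split added after the values of all neurons had been seen. In Hip, GABAergic nuclei held more Hmgcs1 (log2 difference 0.32 ± 0.05), Dhcr7 (0.25), Cyp51 (0.20) and Sqle (0.19) and less Srebf2 (-0.17), 5 of 7 genes called against 52% of all genes. In PFC, GABAergic nuclei held less of 4 genes, Srebf2 (-0.48 ± 0.05), Fdft1 (-0.41), Lss (-0.25) and Hmgcs1 (-0.16), against 53.4% of all genes called. The order between the neuronal classes thus differed by region for Hmgcs1, and that difference was not tested.

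The change of Sqle between SPF and GF mice was called in both neuronal classes of both regions, with 0.52 in glutamatergic and 0.49 in GABAergic nuclei of Hip and 0.40 and 0.61 in PFC, where 46.3%, 41.1%, 62.7% and 52.1% of all genes were called. Hmgcs1 (-0.59 and -0.37) and Cyp51 (-0.32 and -0.47) were called lower in both classes of PFC. Fdft1 in PFC was called in GABAergic nuclei (-0.73) and not in glutamatergic ones (-0.24), and Dhcr7 in Hip in glutamatergic nuclei (0.34) and not in GABAergic ones (0.23), and neither of these differences between classes was tested.

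The pathway's other genes were followed in 4 lists with 34 genes. Between GF and SPF mice, 40 of 121 tested pairs of gene and class were called in Hip (25 higher and 15 lower in GF, 33.1%, against 36.7% of all genes), and 44 of 94 in PFC (16 higher and 28 lower, 46.8%, against 51%). With plain library sizes the calls were 27 higher and 14 lower in Hip and 10 and 29 in PFC, and after the correction for length and GC 17 and 11 in Hip and 17 and 21 in PFC. Between CGF and SPF mice, 1 of 121 was called in Hip and 0 of 94 in PFC by edgeR. Between GF and CGF mice, 49 of 121 (30 higher, 40.5%, against 37.8% of all genes) and 42 of 94 (16 higher, 44.7%, against 51%) were called. Of all genes tested between GF and SPF mice, 20% were called higher and 16.7% lower in Hip, and 25.8% and 25.2% in PFC, against which the counts of each list below stand.

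The 14 other enzymes of the mevalonate and sterol branches rose in 16 and fell in 1 of 45 tested pairs in GF against SPF mice in Hip (37.8% called), and rose in 8 and fell in 5 of 31 in PFC (41.9%). After the correction for length and GC, 8 rose and 0 fell in Hip (DESeq2 15 and 0). Ebp, the isomerase that moves a sterol double bond late in the pathway, had Hip neuron values of 14.4 to 16.9 CPM in GF mice, 3.69 to 4.80 in SPF mice and 3.14 to 4.69 in CGF mice, a change of 1.79 ± 0.16. It was also higher in Hip astrocytes (1.57) and oligodendrocytes (1.07, and 0.58 and not called after the correction for length and GC). Mvk, mevalonate kinase, was higher in Hip astrocytes (1.10), and Pmvk, the next kinase, in PFC astrocytes (1.70, 45.2 to 62.0 CPM in GF against 11.8 to 21.2 CPM in SPF mice).

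Msmo1, which removes methyl groups after Cyp51, stood at 232 to 329 CPM in PFC astrocytes of GF mice, 109.7 to 135 CPM in SPF mice and 84.1 to 92.5 CPM in CGF mice, a change of 1.22 ± 0.15 from SPF to GF. Sc5d, a sterol desaturase, was higher in PFC neurons of GF mice by 0.65. GF values of each of these genes lay above all SPF values, as the rule for naming them asked.

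The 6 genes that control the cleavage of SREBP, with its partner gene Srebf1, gave 2 higher and 5 lower calls of 23 in Hip (30.4%) and 4 higher and 5 lower of 23 in PFC (39.1%). Mbtps1, the protease that makes the first cut of SREBP, was lower in GF mice in Hip astrocytes (-1.02, 17.4 to 29.5 CPM against 40.1 to 55.9 CPM in SPF mice), OPCs (-0.83, not called with DESeq2, plain library sizes or the correction) and neurons (-0.69). Its CGF values were 36.7 to 45.9 CPM in Hip astrocytes, above all GF values. In PFC, Srebf1, the factor of fatty acid synthesis, was lower in oligodendrocytes (-1.53), and Mbtps2, the protease of the second cut, was higher in OPCs (1.49), where SPF values were 12.9 to 21.3 CPM and the call was lost with DESeq2 and with the correction. Genes on the opposite or the same strand overlap Srebf1 and Mbtps2.

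Uptake and intracellular transport, with 6 genes, gave 4 higher and 6 lower calls of 23 in Hip (43.5%) and 2 higher and 6 lower of 17 in PFC (47.1%), which became 4 higher and 2 lower after the correction for length and GC and 0 and 6 with plain library sizes. Vldlr, a receptor for lipoproteins and reelin, stood at 20.2 to 23.2 CPM in Hip astrocytes of GF mice, 42.8 to 57.0 in SPF mice and 38.5 to 39.9 in CGF mice, a change of -1.21 ± 0.17 from SPF to GF. Lrp1 (-0.95) and Lrp8 (-0.77), 2 further lipoprotein receptors overlapped by antisense genes, were lower in Hip oligodendrocytes, Lrp8 not with DESeq2 (-0.78) or the correction (-0.57). Gate markers of astrocytes and neurons were also lower in these GF sums, while neuronal check markers overlapped, as given above. Their part in the changes of both receptors was not tested. Npc2, which carries cholesterol out of lysosomes, was higher in Hip oligodendrocytes (1.15) and, with edgeR and not with DESeq2 or the correction, in OPCs (1.08) of GF mice.

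Efflux, turnover and esterification, with 8 genes, gave 3 higher and 3 lower calls of 30 in Hip (20%) and 2 higher and 12 lower of 23 in PFC (60.9%). Nr1h2, which encodes the oxysterol receptor LXR beta, was lower in all 4 classes of PFC in GF mice, by -2.23 in astrocytes, -2.45 in oligodendrocytes and in neurons, and -2.34 in OPCs. Its PFC neuron values were 5.46 to 6.11 CPM in GF mice, 32.2 to 36.3 in SPF mice and 29.8 to 47.0 in CGF mice. In Hip neurons, where the change was -0.52, they were 5.56 to 5.70 CPM in GF, 6.35 to 8.49 CPM in SPF and 6.45 to 7.16 CPM in CGF mice. GF values of Nr1h2 in neurons thus overlapped between the regions, and SPF and CGF values did not. The PFC libraries of SPF and CGF mice were also shallower and higher in mitochondrial share than those of GF mice. The part of this in Nr1h2 was not tested, and its values in PFC OPCs and oligodendrocytes rest on few UMIs.

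Abca1, a cholesterol exporter and target of LXR, was lower in PFC neurons of GF mice (-1.61, 6.60 to 7.78 CPM against 18.3 to 34.6 CPM in SPF and 21.1 to 31.6 CPM in CGF mice), in PFC OPCs (-0.79) and in Hip OPCs (-0.49, not called with DESeq2, plain library sizes or the correction). Nr1h3, which encodes LXR alpha, was higher in neurons of GF mice in Hip (0.86) and PFC (0.46, and 0.35 and not called with plain library sizes). Cyp46a1, which turns cholesterol into an oxysterol that leaves the brain, was lower in PFC astrocytes of GF mice (-0.83), with 41.3 to 43.5 CPM in GF and 56.6 to 93.8 CPM in SPF mice. CGF mice had 33.7 to 57.3 CPM, which overlaps the GF values. Neuronal gate markers were also lower in these GF sums, as given above, and their part in the change of Cyp46a1 was not tested.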

How the data were processed

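The authors sequenced nuclei of 18 libraries with the 10x Genomics droplet method and deposited UMI counts per gene and nucleus, made with Cell Ranger on mm10 and Ensembl gene models. The submitters' processing notes name CASAVA 1.8, Cell Ranger and mm10. Whether intronic reads were counted is not given in the sources used here. The deposited counts were whole numbers without normalization for 30905 genes.

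Nuclei were kept with at least 200 genes and at most 10% of UMIs from mitochondrial genes. A nucleus was placed in a class with at least 3 UMIs and 2 markers of that class's list and at least 50% of the UMIs of all lists. This gate was set from markers and clusters alone, after the files had been seen. No doublet caller was run, so that nuclei of mixed markers over the 50% limit remained. UMIs were summed per mouse, region and class (sums of 140575 to 64633390 UMIs) and tested with edgeR 4.0.16 in R 4.3.3 (filterByExpr, TMM, glmQLFit, glmQLFTest), with all 9 mice of a region in a fit, the library as a block between classes, and all 18 sums of a class between regions. SE is the absolute log2 fold change over the square root of F, and p-values were adjusted over all genes of a class. The procedure was tested on simulated data.

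Both regions come from the same mice. The deviation of a mouse's Hip sum from its group mean correlated with that of its PFC sum by 0.149 to 0.512 in neurons, where 9 of 9 mice correlated best with themselves, by -0.0456 to 0.254 in astrocytes, by -0.0127 to 0.248 in oligodendrocytes and by -0.0151 to 0.113 in OPCs. No libraries looked like duplicates, and library pairs shared 6 to 29 barcodes.

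Members and gene lists were chosen with earlier results of these data known. Named were all 7 members and, of 34 further pathway genes, at most 2 per direction, class and region with the largest change between GF and SPF mice among those called whose values do not overlap. Like genes were the closest 3 to the members' mean and 1 per member, over mean log2(CPM + 1). Promoter windows came from RefSeq (GRCm38.p6). Alternatives were DESeq2 1.42.0, no filter on low counts, plain library sizes, a trend on gene length and GC content removed, thinning, a stricter gate (4 UMIs, 60%), Leiden clusters, nuclei over the 95th percentile of UMIs left out, other samples or blocks in the fit, and each mouse left out. For thinning, UMIs were drawn at random from the class sums after the gate. The share drawn brought each library's mean UMIs per nucleus to 1 value per region (5510.0 in Hip and 2895.1 in PFC), not per class. The split of neurons and the alternatives for the pathway lists were chosen after seeing the data. Python 3.11.15 with scanpy 1.11.5 was used for clustering.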

Additional observations from a re-analysis of the deposited data

Results flagged for a closer look

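A test of the difference between 2 classes singled out 5 results on GF against SPF mice. In Hip, the log2 difference in astrocytes minus that in neurons was -0.58 for Fdft1 and -0.49 for Cyp51, and the difference in oligodendrocytes minus that in neurons was -0.51 for Srebf2. In PFC, the difference in astrocytes minus that in neurons was 0.78 for Hmgcs1 and 0.50 for Fdft1. Fdft1 thus had opposite signs in the 2 regions, and that contrast between regions was not tested. The Hip calls were each lost in most alternatives, as given above.

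A test of the difference between regions singled out 6 results, each the GF against SPF difference in Hip minus that in PFC. Srebf2 gave -0.61 in astrocytes, -0.74 in oligodendrocytes and -0.46 in neurons, and Hmgcs1 gave -0.66 in astrocytes. In neurons, Cyp51 gave 0.44 and Dhcr7 gave 0.53. Depth and mitochondrial share differed between the groups in other ways in Hip than in PFC, and their part in these 11 results was not tested.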

How the results depend on the processing

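Of 5795 values of single genes under an alternative, 5474 kept their direction and side of the threshold or were uncalled in both, 182 lost a call, 139 gained one, and 0 called values changed sign. Between CGF and SPF mice, Hip calls went from 1 to 3 without a filter on low counts, to 2 with only the 2 groups compared, and to 0 to 2 with a mouse left out, and PFC calls from 0 to 1 with DESeq2 and 0 to 2 with a mouse left out. Between GF and CGF mice, PFC calls went from 6 to 10 with Leiden clusters and with the length and GC trend removed, and 5 to 8 with a mouse left out, and Hip calls from 8 to 6 to 9. Between GF and SPF mice, Hip calls went from 5 to 2 with the length and GC trend removed and 3 to 5 with a mouse left out, and PFC calls from 5 to 10 with Leiden clusters, to 8 with the trend removed, with only the 2 groups and with plain library sizes, and 4 to 8 with a mouse left out. Srebf2 in PFC was called higher in GF mice with the trend removed, by 0.81 in astrocytes, 0.61 in oligodendrocytes and 0.50 in neurons.

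With the mouse as a replicate block, calls between Hip and PFC in SPF mice went from 6 to 9 and those of the interaction with region from 6 to 7, and no other comparison has such a block. With a mouse left out they were 3 to 7 (3 without SPF mouse 32) and 1 to 8 (3 without GF mouse 5, 2 without GF mouse 6, GF mouse 7, SPF mouse 30 or SPF mouse 31, 1 without SPF mouse 32). For differences between glia and neurons, the 3 Hip calls became 0 with DESeq2, with the trend removed, without a filter, with no replicate block for the library, with the stricter gate and with thinning, and 0 to 4 with a mouse left out. The 2 PFC calls became 1 with DESeq2, 7 with Leiden clusters, 4 without a filter, 1 with no replicate block, and 1 to 2 with a mouse left out. Between classes, the 36 Hip calls were 33 and the 33 PFC calls 30 with no replicate block, and 35 to 37 and 29 to 35 with a mouse left out. The cause of these changes was not tested. Counts of a few UMIs per sum limit Sqle, Lss and Dhcr7 in OPCs and in PFC oligodendrocytes.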
